A study of Saccharomyces cerevisiae with 12 samples.

Results

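The set holds 10 genes of budding yeast: SGS1, its complex partners TOP3 and RMI1, the nuclease genes MUS81, MMS4, SLX1, SLX4 and YEN1, and the helicase genes SRS2 and MPH1. They were picked by name for what their proteins do, though earlier results of these data were known. The array carries 11 probes for them, with MMS4 on 2 probes. All 10 were among the 6443 genes tested, each of which was detected on at least 3 of 12 arrays. RNA was compared in 4 groups of 3 arrays each, namely a WT and an sgs1Δ strain, each with and without tangeretin, a methoxylated flavone of citrus peel. Treated cells had 30 µM tangeretin and control cells had solvent alone, both for 4 h at 30 °C in medium lacking tryptophan with 0.2% DMSO. Both strains are labelled MATα and carry his3Δ1, leu2Δ0, met15Δ0, ura3Δ0 and trp1∆::HPH, plus the plasmid pRS414-GAL1-HO-TRP1, which puts the HO endonuclease behind a galactose promoter. The second strain also carries sgs1∆::kanMX4, and each genotype is a single named strain, YCL1071 for WT and YCL1098 for sgs1Δ.

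Sgs1 is the RecQ helicase of budding yeast and the counterpart of the human BLM and WRN proteins. With the topoisomerase Top3 and the accessory protein Rmi1 it takes apart joined DNA molecules without forming crossovers, and it helps to trim broken DNA ends. Mus81-Mms4, Slx1-Slx4 and Yen1 cut branched DNA instead, and cells that lack Sgs1 lean on several of them, which is how the SLX genes were found: as genes that sgs1 mutants need to live. Srs2 is a helicase that limits recombination, and Mph1 unwinds early recombination intermediates.

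The arrays differed in overall brightness, with a median raw intensity per array of 530 to 814.5 in WT control, 780 to 956 in WT with tangeretin, 928 to 1344 in sgs1Δ control and 1367.5 to 1530 in sgs1Δ with tangeretin. Raw intensities below therefore rise with the array, and groups were compared on quantile-normalized log2 values. No source used here defines the scanner flags. Flag 0 was read as detected, since other flags went with intensities near 0 or with empty spots, and on that reading 88.3% to 95.6% of probes were detected per array. Nothing in the labels says that arrays of 1 group are separate cultures, and in the file headers they share a sample number, so p-values may reflect technical spread alone. Fits used limma over all 4 groups with Benjamini-Hochberg adjustment over the 6443 genes, and "called" or "passed" means an adjusted p below 0.05. The error given with a log2 difference is its standard error (SE), and any other error is a standard deviation (SD) of 3 arrays.

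SGS1, on the right arm of chromosome XIII (YMR190C), was detected on all 6 WT arrays and on none of the 6 sgs1Δ arrays. Its raw intensities were 115, 108 and 120 in WT control and 151, 169 and 168 in WT with tangeretin. In sgs1Δ they were 5, 6 and 5 without the compound and 4, 5 and 7 with it. No sgs1Δ array came near the lowest WT array. SGS1 was fitted 4.74-fold lower in sgs1Δ in control medium (log2 difference −2.24, SE 0.12, limma adjusted p = 8.03e-09). Under tangeretin it was fitted 4.49-fold lower (log2 difference −2.17, SE 0.12, limma adjusted p = 9.16e-09). With each undetected sgs1Δ array at its lowest detected level or above, that fold was 4.33. The sgs1Δ levels are bounds, but the folds also depend on the processing. Over the other settings the log2 differences ran from −5.59 to −1.89 in control medium and −6.17 to −1.82 under tangeretin. The genes on either side of it were present in both strains: MRPS17, which encodes a mitochondrial ribosomal protein, GCV2, a subunit of glycine decarboxylase, SPG5 and GYL1 were each detected on all 12 arrays. Of their differences between the strains, GCV2 under tangeretin (0.67, SE 0.24, limma adjusted p = 0.0329) and SPG5 in control medium (0.24, SE 0.09, limma adjusted p = 0.0451) passed the test, both higher in sgs1Δ.

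**Figure D1:**
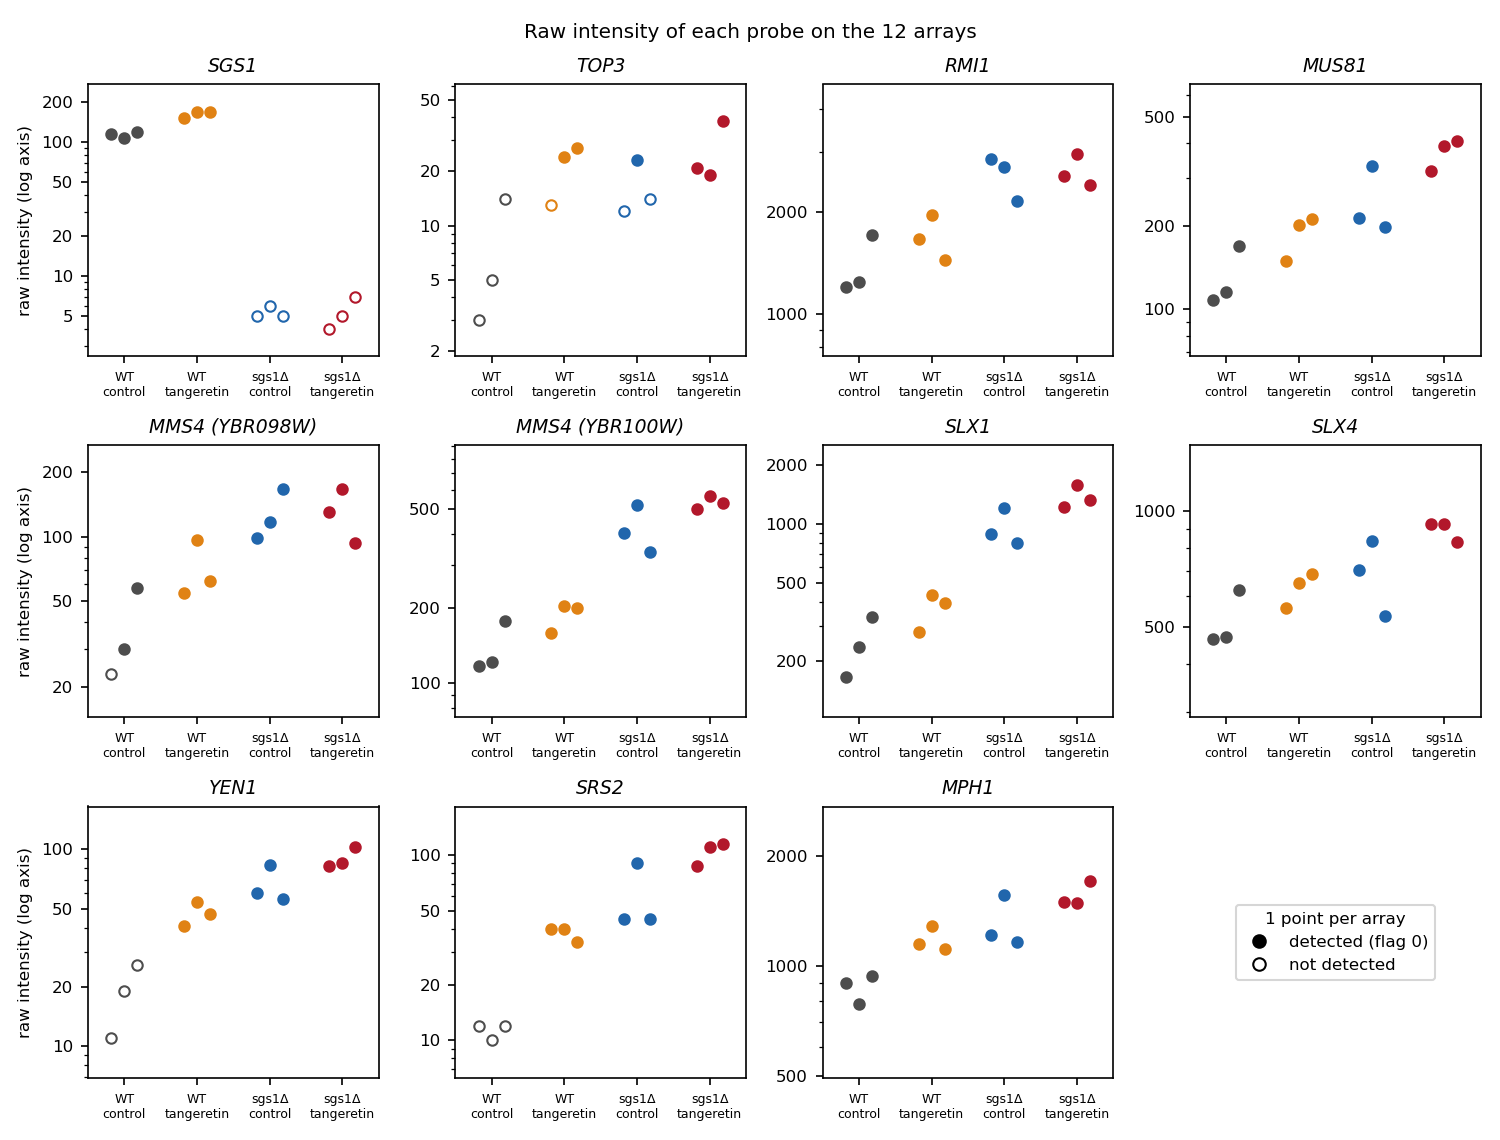
Raw intensity of the 11 probes on the 12 arrays (log axis, arbitrary scanner units), with 1 point per array, filled where the spot was detected and open where it was not. SGS1 lay between 108 and 169 in WT and between 4 and 7 in sgs1Δ, and TOP3, YEN1 and SRS2 were undetected on all 3 WT control arrays.

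TOP3 and RMI1, which encode the partners of Sgs1 in the complex, did not pass the test between the strains. The TOP3 probe was among the dimmest of those tested, with raw intensities of 3, 5 and 14 in WT control, 13, 24 and 27 in WT with tangeretin, 12, 23 and 14 in sgs1Δ control and 21, 19 and 38 in sgs1Δ with tangeretin. It was detected on 0, 2, 1 and 3 arrays of these groups. Its groups overlapped. With WT control undetected, its TOP3 level is a bound, and the difference in control medium did not pass (95% interval −0.09 to 0.37, limma adjusted p = 0.288). With each undetected WT control array at its lowest detected level or above, the fold was 1.09. Under tangeretin the log2 difference was −0.08 (95% interval −0.30 to 0.15). The value in control medium depended on the processing. The fitted log2 difference was 0.14 with the offset of 50, 0.78 with no offset and 0.49 in the authors' log2 values, none of which passed. With each array's 75th percentile subtracted after the offset, TOP3 was lower in sgs1Δ, by −0.40 in control medium (limma adjusted p = 0.0166) and −0.55 under tangeretin (limma adjusted p = 0.00267).

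RMI1 was bright on every array, at 1201, 1245 and 1710 in WT control and 1657, 1958 and 1438 in WT with tangeretin. In sgs1Δ it read 2850, 2699 and 2147 in control medium and 2554, 2960 and 2404 with tangeretin. The raw values were higher in sgs1Δ, as was array brightness, and after normalization the strain differences were 0.21 in control medium (95% interval −0.05 to 0.47) and −0.06 under tangeretin (95% interval −0.32 to 0.20). Without sgs1Δ control array 2, RMI1 passed in control medium (0.33, limma adjusted p = 0.0391).

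Of the 10 genes, 6 were called between sgs1Δ and WT in control medium, with MMS4, SLX1, YEN1 and SRS2 higher and SGS1 and SLX4 lower in sgs1Δ. Under tangeretin 6 were called too, with MMS4, SLX1 and SRS2 higher and SGS1, SLX4 and MPH1 lower. Both counts include SGS1, the deleted gene, and without it 5 were called in each medium. A large share of all genes was called in these comparisons, 47.9% in control medium (21.3% higher and 26.7% lower) and 45.6% under tangeretin (20.5% higher and 25.1% lower), and the count for these genes lies near those shares. With 75th percentile scaling the split over all genes in control medium was 1842 higher and 1537 lower, against 1370 and 1719 here. The median absolute log2 difference of the 10 genes was 0.44 in control medium and 0.33 under tangeretin, beside 0.28 and 0.27 over all genes tested.

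MUS81 encodes the catalytic subunit of the Mus81-Mms4 nuclease and MMS4 its partner. MUS81 read 108, 116 and 170 in WT control, 150, 203 and 213 in WT with tangeretin, 214, 332 and 199 in sgs1Δ control and 317, 393 and 409 in sgs1Δ with tangeretin. Its normalized groups overlapped, at 8.17 ± 0.05 (SD, n = 3) in WT control and 8.15 ± 0.10 in sgs1Δ control, and the strain differences were −0.03 (95% interval −0.24 to 0.18) and 0.08 under tangeretin (95% interval −0.13 to 0.29). The second value passed with 75th percentile scaling before the offset (0.28, limma adjusted p = 0.0428).

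MMS4 was higher in sgs1Δ with and without the compound. Its brighter probe, listed under the old locus name YBR100W, read 117, 122 and 178 in WT control, 159, 205 and 201 in WT with tangeretin, 401, 521 and 338 in sgs1Δ control and 502, 564 and 529 in sgs1Δ with tangeretin, with no overlap between the strains. MMS4 was 1.46-fold higher in sgs1Δ in control medium (log2 difference 0.54, SE 0.09, limma adjusted p = 0.000247) and 1.44-fold higher under tangeretin (0.53, SE 0.09, limma adjusted p = 0.000303). The dimmer probe (YBR098W) read 23, 30 and 58 in WT control, 55, 97 and 62 in WT with tangeretin, 99, 118 and 167 in sgs1Δ control and 131, 167 and 94 in sgs1Δ with tangeretin. In a fit over 6657 probes it was also higher in sgs1Δ in control medium (0.65, SE 0.17, limma adjusted p = 0.00685), but under tangeretin its difference was 0.08 (SE 0.17, limma adjusted p = 0.722), so the probes disagreed there.

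SLX1 and SLX4 encode the catalytic subunit and the scaffold of a structure-selective nuclease, and they went opposite ways. SLX1 read 164, 235 and 333 in WT control, 279, 435 and 392 in WT with tangeretin, 884, 1208 and 796 in sgs1Δ control and 1217, 1575 and 1324 in sgs1Δ with tangeretin. Every sgs1Δ array was brighter for SLX1 than every WT array. The gene was 1.98-fold higher in sgs1Δ in control medium (log2 difference 0.99, SE 0.11, limma adjusted p = 1.43e-05) and 2.04-fold higher under tangeretin (1.03, SE 0.11, limma adjusted p = 8.69e-06).

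SLX4 read 464, 470 and 623 in WT control, 558, 651 and 687 in WT with tangeretin, 701, 834 and 534 in sgs1Δ control and 924, 927 and 832 in sgs1Δ with tangeretin. Its raw intensities were thus mostly higher in sgs1Δ, while its normalized values were lower, at 9.42 ± 0.17 (SD, n = 3) against 9.82 ± 0.09 in control medium. The difference was −0.40 (SE 0.11, 1.32-fold lower, limma adjusted p = 0.0109) in control medium and −0.30 (SE 0.11, 1.23-fold lower, limma adjusted p = 0.0436) under tangeretin. The first call was lost with 75th percentile scaling in either order, with array brightness as a covariate and without sgs1Δ control array 3 (−0.33, limma adjusted p = 0.0518). The second was kept in 7 of 15 other settings and was lost without WT control array 1 or 2, WT tangeretin array 1 or 3, or sgs1Δ tangeretin array 2 or 3 (limma adjusted p from 0.053 to 0.165).

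YEN1 encodes a Holliday junction resolvase of late mitosis. Its probe was dim, at 11, 19 and 26 in WT control, where it was undetected, then 41, 54 and 47 in WT with tangeretin, 60, 83 and 56 in sgs1Δ control and 82, 85 and 103 in sgs1Δ with tangeretin. Its WT control level is thus a bound. YEN1 was fitted 1.40-fold higher in sgs1Δ than in WT in control medium (log2 difference 0.49, SE 0.08, 95% interval 0.31 to 0.67, limma adjusted p = 0.000443). It met the detection filter through the other groups alone, which favours genes that are higher there. Of 217 tested genes undetected on all 3 WT control arrays, 46 were called higher and 10 lower in this comparison. Under tangeretin the difference was 0.13 (SE 0.08, 95% interval −0.06 to 0.31, limma adjusted p = 0.237). With no offset the difference in control medium was 1.02. The call there was lost with array brightness as a covariate (0.42, limma adjusted p = 0.0704) and with the 75th percentile subtracted after the offset (0.15, limma adjusted p = 0.224).

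SRS2, which the array file lists as HPR5, read 12, 10 and 12 in WT control, where it was undetected, 40, 40 and 34 in WT with tangeretin, 45, 91 and 45 in sgs1Δ control and 87, 110 and 114 in sgs1Δ with tangeretin. Its WT control level is thus a bound. SRS2 was fitted 1.51-fold higher in sgs1Δ in control medium (log2 difference 0.59, SE 0.11, limma adjusted p = 0.000916) and 1.33-fold higher under tangeretin (0.41, SE 0.11, limma adjusted p = 0.00938). Both calls were lost with array brightness as a covariate (limma adjusted p = 0.1 and 0.251) and with the 75th percentile subtracted after the offset (limma adjusted p = 0.161 and 0.283). With no offset the log2 differences were 1.49 and 0.81. Like YEN1, SRS2 met the detection filter through the other groups alone.

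MPH1, the helicase of the Fanconi anemia M family, was bright, at 898, 786 and 940 in WT control, 1151, 1289 and 1113 in WT with tangeretin, 1218, 1565 and 1167 in sgs1Δ control and 1499, 1489 and 1713 in sgs1Δ with tangeretin. After normalization it was 1.27-fold lower in sgs1Δ under tangeretin (log2 difference −0.35, SE 0.11, limma adjusted p = 0.0223), with no overlap of the groups. In control medium the groups overlapped and the difference was −0.15 (95% interval −0.39 to 0.09, limma adjusted p = 0.284). The call under tangeretin was lost with 75th percentile scaling in either order, with array brightness as a covariate, without WT tangeretin array 1 (−0.30, limma adjusted p = 0.0828) and without sgs1Δ tangeretin array 2 (−0.27, limma adjusted p = 0.0935). Without WT control array 3, MPH1 passed in control medium as well (−0.27, limma adjusted p = 0.0466).

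**Figure D2:**
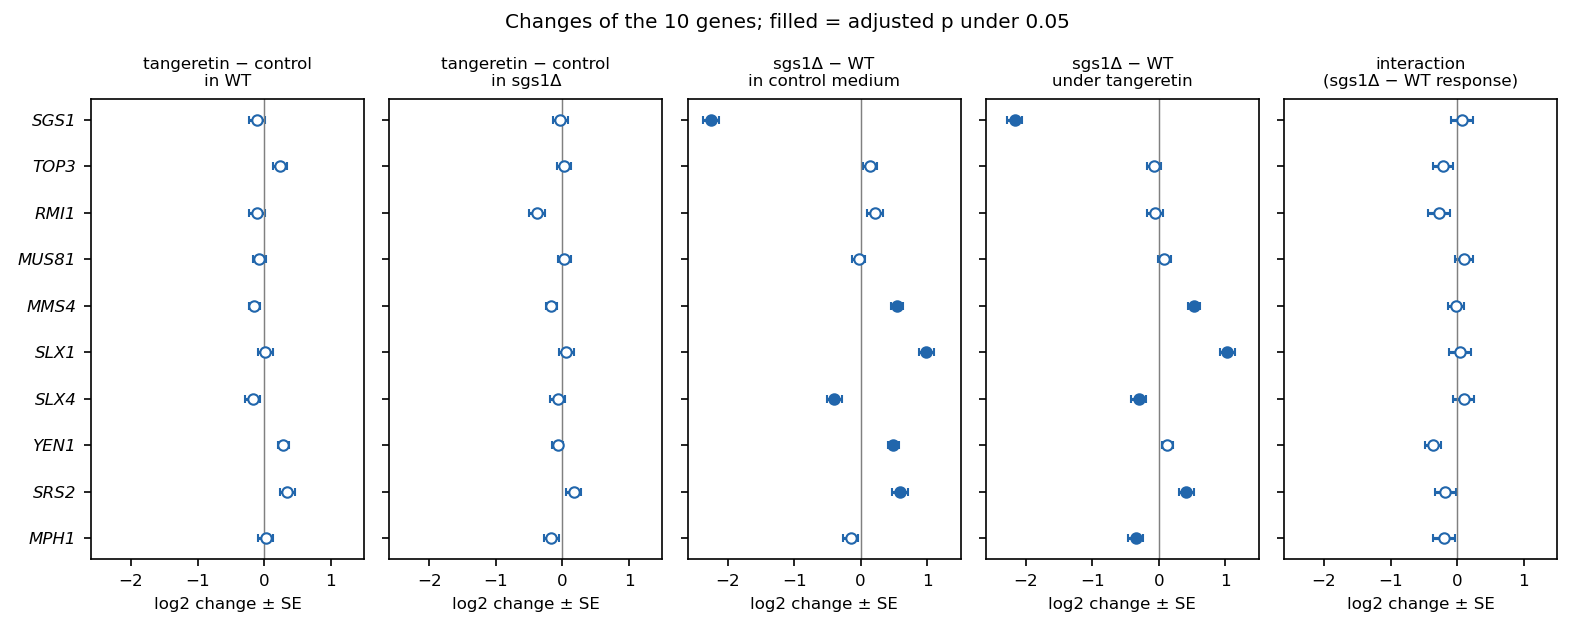
Log2 differences of the 10 genes in the 5 comparisons, with bars of 1 SE from the limma fit and filled points where the adjusted p was under 0.05. The filled points lie in the comparisons of sgs1Δ with WT, from −2.24 for SGS1 to 1.03 for SLX1, and none lies in the tangeretin or interaction panels.

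Tangeretin left none of the 10 genes called in either strain by limma, beside 3.12% of all genes in WT and 1.41% in sgs1Δ. At an unadjusted p under 0.05 there were 3 in WT and 1 in sgs1Δ, beside 1769 and 1387 of the 6443 genes tested. In WT the 3 were SRS2, YEN1 and TOP3, the same genes that were undetected in WT control, so that their levels there are bounds. They met the detection filter through other groups alone, and of the 217 such genes 3 were called higher and 0 lower here. With tangeretin SRS2 was fitted 1.27-fold higher (limma adjusted p = 0.0898), YEN1 1.22-fold (limma adjusted p = 0.0719) and TOP3 1.18-fold (limma adjusted p = 0.163), none of which passed. With each undetected WT control array at its lowest detected level or above, the TOP3 fold was 1.16. With the 75th percentile subtracted after the offset, the log2 differences of SRS2, YEN1 and TOP3 were 0.16, 0.15 and −0.04. With no offset their fitted log2 differences were 1.01, 0.65 and 1.12, and YEN1 passed there (limma adjusted p = 0.0462). The other 7 lay between −0.17 and 0.03. In sgs1Δ the 1 gene at that unadjusted p was RMI1, which was lower with tangeretin (−0.38, SE 0.12, limma adjusted p = 0.103). RMI1 passed without sgs1Δ control array 2 (−0.50, limma adjusted p = 0.0205), where 749 of all genes were called.

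WT control array 3 was brighter than the other WT control arrays. Without it 3 of the 10 passed in WT, beside 1695 of the 6443 genes tested. The 3 were SGS1 (−0.27, limma adjusted p = 0.0495), TOP3 (0.33, limma adjusted p = 0.0396) and YEN1 (0.30, limma adjusted p = 0.0393). SGS1 itself had raw intensities of 108 to 120 without and 151 to 169 with the compound, while its normalized difference was −0.11 (95% interval −0.36 to 0.15). YEN1 in WT also passed in 5 of 14 other settings, among them the authors' log2 values (0.65, limma adjusted p = 0.0458).

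The response to tangeretin did not differ between the strains past the threshold for any of the 10 genes, beside 1.27% of all genes called in that interaction. At an unadjusted p under 0.05 there were 1051 of the 6443 genes tested and 1 of the 10. That gene was YEN1, whose response in sgs1Δ minus that in WT was fitted at −0.36 (SE 0.12, limma adjusted p = 0.16) and at −0.78 with no offset. TOP3 and SRS2, undetected like YEN1 in WT control, moved with the offset as well, TOP3 from −0.22 to −1.05 and SRS2 from −0.18 to −0.69. For SLX1 and MMS4 the interaction was 0.04 and −0.02, with 95% intervals of −0.30 to 0.39 and −0.28 to 0.25. For SGS1, undetected throughout sgs1Δ, it has no meaning.

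MMS4 and SLX1 both lie on the right arm of chromosome II, and genes of that chromosome were higher in sgs1Δ as a group. Over 408 other chromosome II genes the median log2 difference was 0.72 in control medium and 0.67 under tangeretin, while the medians of the other chromosomes lay between −0.13 and 0.01 and between −0.10 and −0.02. Of these 408 genes 82.1% and 79.9% were called higher in sgs1Δ, against 17.4% and 16.7% of 5609 genes on other chromosomes. Both arms showed it, with medians in control medium of 0.72 on the right and 0.74 on the left.

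Within the right arm, MMS4 stood at percentile 33.4 and 35.1 of 296 genes and SLX1 at percentile 77.4 and 75.7, so neither lay outside the range of its arm. Among the 9 tested genes around MMS4, up to 5 on each side, the median was 0.79 in control medium and 0.74 under tangeretin, and around SLX1 it was 0.65 and 0.81. Taken relative to the right-arm median, MMS4 was at −0.18 and −0.16 and SLX1 at 0.27 and 0.34. The part of the chromosome-wide difference in the values of these 2 genes was not tested. With the other chromosome II genes left out of the normalization, MMS4 and SLX1 were called in both comparisons. That setting does not take the chromosome-wide difference out of the values of these 2 genes, so it cannot show its part in them.

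**Figure D3:**
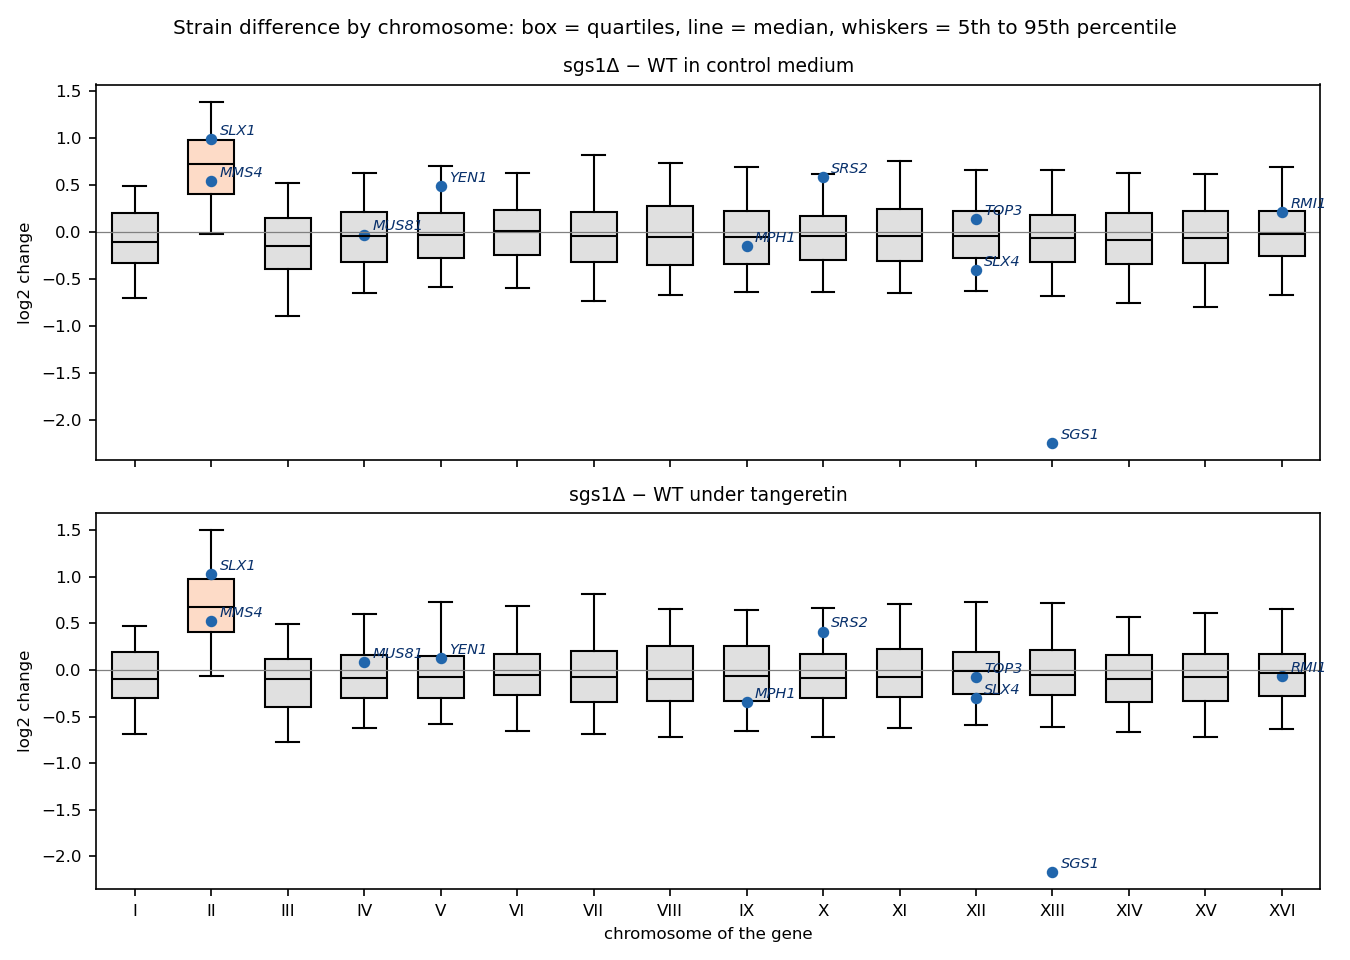
Log2 difference between sgs1Δ and WT for genes of each of the 16 chromosomes, in control medium (top) and under tangeretin (bottom), with boxes for quartiles, a line for the median, whiskers for the 5th to 95th percentile and points for the 10 genes. Chromosome II has medians of 0.72 and 0.67, and its points MMS4 (0.54 and 0.53) and SLX1 (0.99 and 1.03) lie within its whiskers.

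The genes most like each called member that was detected on all 12 arrays were found by Pearson correlation of normalized log2 values over the 12 arrays, which share the strain difference. MMS4 was most like PEP1 (0.985), RFS1 and TIR3 (0.983 each), and SLX1 most like ERG25 (0.987), SSA3 (0.986) and PRX1 (0.984). PEP1, RFS1, SSA3 and PRX1 are on chromosome II, as were 24 of the 50 genes most like MMS4 and 22 of the 50 most like SLX1. SLX4 was most like YIP4, GLC8 and YDR246W-A (0.980 to 0.982), with 0 of 50 on chromosome II, and MPH1 most like BEM2, LSM3 and YBL029W (0.949 to 0.976), with 1 of 50.

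Genes whose products work with this set or on the same DNA structures were mixed in direction. All 32 were tested, and 13 were called in control medium, beside 47.9% of all genes. Of these 4 were higher and 9 lower in sgs1Δ in control medium (median −0.07, beside −0.03 over all genes). Under tangeretin 5 were higher and 10 lower (median −0.16, beside −0.04), where 20.5% and 25.1% of all genes were. Those lower in control medium included NSE4 of the Smc5-Smc6 complex (−0.60, SE 0.11, limma adjusted p = 0.000521), CSM2 of the Shu complex (−0.56, SE 0.10) and the helicase CHL1 (−0.53, SE 0.13), while DNA2, the nuclease and helicase that resects ends with Sgs1, was higher (0.58, SE 0.15, limma adjusted p = 0.00681). Under tangeretin CHL1 was lower by −0.64, the resection nuclease EXO1 by −0.52 and MHF2, a histone-fold partner of Mph1, by −0.54, and the topoisomerase gene TOP2 was higher (0.55, SE 0.19, limma adjusted p = 0.0309). Tangeretin raised MHF2 (0.44) and lowered NSE4 (−0.44) and the Shu complex gene SHU1 (−0.38) in WT, and lowered ELG1 (−0.49), part of a clamp unloader, in sgs1Δ. MHF2 was the 1 gene of the list called in the interaction (−0.75, SE 0.15, limma adjusted p = 0.0368).

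Of 12 tested genes known to be induced by DNA damage, 3 were called higher and 2 lower in sgs1Δ in control medium (median 0.13), and 4 higher and 2 lower under tangeretin (median 0.05), while 47.9% and 45.6% of all genes were called. HUG1, an inhibitor of ribonucleotide reductase, was 2.44-fold higher in control medium (log2 difference 1.28, SE 0.12, limma adjusted p = 2.56e-06) and 3.18-fold higher under tangeretin (1.67, SE 0.12, limma adjusted p = 1.71e-07). The reductase subunit gene RNR4 was higher by 0.64 and 0.66 and the excision repair gene RAD16, on chromosome II, by 0.41 and 0.61. RNR3, another damage-induced reductase subunit gene, was lower in control medium (−0.55, SE 0.14, limma adjusted p = 0.00669), as was the photolyase gene PHR1 (−0.70, SE 0.14, limma adjusted p = 0.00116), and the subunit gene RNR1 was lower under tangeretin (−0.51, SE 0.09). In WT, tangeretin lowered PHR1 (−0.56, SE 0.14, limma adjusted p = 0.0474), and no other gene of this list was called for tangeretin or the interaction.

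Of 15 tested genes transcribed at the start of S phase, 8 were called lower and 2 higher in sgs1Δ in control medium (median −0.30), where 26.7% of all genes were called lower and 21.3% higher. Under tangeretin 11 were lower and 2 higher (median −0.46), beside 25.1% and 20.5% of all genes. The 2 that were higher, POL12 (0.79 and 0.44) and POL30 (0.48 and 0.34), are on chromosome II. The cyclin genes CLB6 (−1.12, SE 0.14) and CLN1 (−1.10, SE 0.12) and the cohesin subunit gene SMC3 (−0.55, SE 0.11) were lower in control medium. Under tangeretin CLN1 (−1.32, SE 0.12), CLB6 (−1.18, SE 0.14), the cohesin subunit gene MCD1 (−1.04, SE 0.10) and the cyclin gene PCL1 (−0.86, SE 0.09) were lower. In sgs1Δ tangeretin lowered CDC21 (−0.48), thymidylate synthase, and PCL1 (−0.46), and MCD1 was the 1 gene of the list called in the interaction (−0.66, SE 0.15, limma adjusted p = 0.0497).

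**Figure D4:**
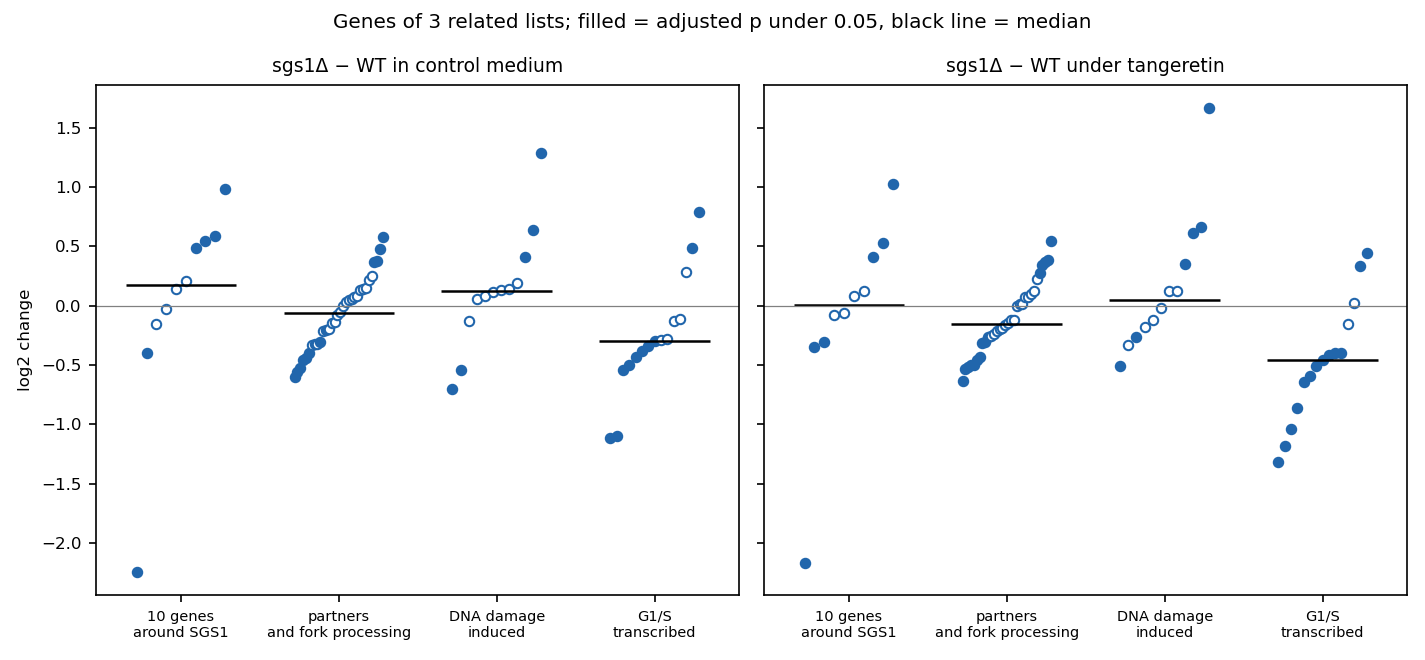
Log2 difference between sgs1Δ and WT for each tested gene of the set and of the 3 related lists, in control medium (left) and under tangeretin (right), filled where the adjusted p was under 0.05, with a black line at each median. The genes transcribed at the start of S phase have medians of −0.30 and −0.46, and HUG1 is the highest point of its list at 1.28 and 1.67.

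Markers of cell type differed between the strains as well. After normalization 4 of 5 α-cell probes were called higher and 1 lower in sgs1Δ in each medium (median log2 difference 1.69 in control medium and 2.36 under tangeretin). Of 7 a-cell probes 4 were higher in control medium (median 0.32) and 6 under tangeretin (median 0.64), and none was called lower. The summed raw intensity of 5 α-cell probes was 4869 to 7267 in WT control, 7483 to 9149 in WT with tangeretin, 29180 to 36708 in sgs1Δ control and 56045 to 57283 in sgs1Δ with tangeretin. That of 7 a-cell probes was 6140 to 7405, 7316 to 8063, 12510 to 17120 and 23760 to 25104 in the same order, and both raw sums rise with the brightness of the arrays. All 12 of these probes were detected on all 12 arrays, although both strains are labelled MATα, and the α1 probe is shared between the silent and the expressed locus. The part of cell type in the strain differences above was not tested, and in RNA from whole cultures fewer expressing cells and less RNA per cell cannot be told apart.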

How the data were processed

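Cy5-labelled cDNA was hybridised to 12 Phalanx arrays with 1 colour. The raw intensity of each spot and its scanner flag (unit other) were deposited per the file headers, with empty spots near 0. The deposited log2 values had been normalized between arrays by the authors, by a method not given in the sources used here.

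Spots of a probe were averaged, values under 0 set to 0, 50 added, arrays quantile normalized and log2 taken (R 4.3.3, limma 3.58.1). Of 6958 probes, 301 detected on fewer than 3 arrays were left out, and the brightest probe stood for each of 119 genes with several. The RefSeq R64 annotation matched 6014 probes by locus tag or synonym. lmFit and eBayes were fitted to the 4 groups with 8 residual degrees of freedom, and all p-values are two-sided. The level of a group undetected on all its arrays is a bound. For such groups the fold was also taken with each undetected array at its lowest detected level where its own was lower. This could not change the folds of YEN1 and SRS2. Their WT control values (6.27 to 6.46 and 6.03 to 6.34) lay above the lowest detected levels of those arrays (5.64 to 5.87). As some values flagged undetected lay above these levels, the levels are no detection limit. The same holds for the folds of SGS1 and TOP3 taken this way. Such a fold covers neither the spread of the arrays nor the choice of processing. The fit was tested on simulated data. Array number limits the precision.

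The genes, lists, named genes and alternatives were chosen with earlier results of these data known. Named were the 10 genes, 2 genes on each side of SGS1, the 3 genes most like each called member detected throughout, and up to 4 called genes per list and comparison with the largest change; POL30 and the values of RAD16 in control medium were added after their values were seen. MAG1 and RAD27 of the lists were not tested. Same-numbered arrays of different groups deviated together in 9 of 18 pairs (correlation over 0.1, range −0.41 to 0.50). Differently numbered arrays did so in 12 of 36 pairs (range −0.64 to 0.51). As both kinds of pair reached like correlations, the numbers were not taken to pair arrays.

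Alternatives changed the offset (none or 16), the normalization (75th percentile, cyclic loess or the authors' log2 values), the filter (none, or without the dimmest 25% of genes), probes (averaged per gene), the arrays fitted (compared groups alone, or each array left out), covariates (a replicate block or array brightness), the variance model (trend and robust) and array weights. The order of offset and 75th percentile scaling was not stated in the plan. It was run first with the offset before the scaling and changed to the scaling before the offset after those results were seen, and both are reported. Leaving chromosome II genes out of the normalization was also chosen after seeing the data.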

Additional observations from a re-analysis of the deposited data

How the results depend on the processing

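The calls of SGS1, MMS4 and SLX1 between the strains held in each of the 15 other settings that measured them (14 for SGS1, which is among the dimmest 25% of genes) and without each of the 12 arrays. Their log2 differences ranged from −5.59 to −1.89 and −6.17 to −1.82 for SGS1, 0.46 to 0.83 and 0.30 to 0.73 for MMS4, and 0.86 to 1.27 and 0.90 to 1.17 for SLX1, in control medium and under tangeretin. The other calls did not hold throughout. The number of the 10 genes called for tangeretin in WT, 0 here, was 1 with no offset, an offset of 16 or the authors' log2 values, 6 with array weights, 2 with 75th percentile scaling and 0 to 3 without each array. In sgs1Δ it was 1 with array weights and 0 to 1 without each array. Between the strains it was 6 here and 3 with array brightness as a covariate in both media; in control medium it was 3 without the dimmest 25% of genes, where SGS1, YEN1 and SRS2 were not tested, and 5 to 7 without each array, and under tangeretin 4 to 6. With the 75th percentile subtracted after the offset, the order run first, TOP3 turned to −0.40 in control medium and passed, and 4 of 10 were called in each medium (SGS1, TOP3, MMS4 and SLX1), against 5 with the scaling before the offset. The cause was not tested. The interaction had 0 in every setting that gave it; it cannot be had from the groups of 1 comparison alone. With the replicate block 0, 0, 6, 6 and 0 of the 10 genes were called in the 5 comparisons, as without it, and 479 genes in all against 201 for tangeretin in WT.

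Over all genes, the calls for tangeretin in WT ran from 6 (array brightness) to 2690 (array weights) against 201 here, with 48 in the compared groups alone, 66 with no offset, 68 with the authors' log2 values, 116 without the dimmest 25% and 352 with 75th percentile scaling, and 1695 without WT control array 3. In sgs1Δ they ran from 17 to 1558 in the same 2 settings against 91, with 34 in the compared groups alone, 54 with no offset and 749 without sgs1Δ control array 2. Between the strains, array brightness left 802 and 1129 against 3089 and 2940, and the other settings stayed within 1.5 times. The interaction had 43 to 1512 calls against 82. Leaving out each array gave 15 to 1695 calls in WT, 13 to 749 in sgs1Δ and 6 to 355 in the interaction. The share of calls that were higher for tangeretin was 56.7% in WT and 51.6% in sgs1Δ here, 83.2% and 76.1% with 75th percentile scaling, and 73.7% and 73% with the offset first; in sgs1Δ it was 66.3% with cyclic loess. Dim probes limit what can be said of TOP3, YEN1 and SRS2, whose WT control levels are bounds.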
